A study of Mus musculus with 4 samples.

Results

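In libraries of sorted mouse megakaryocytes labelled Gfi1b knockout, 49 protein-coding genes stood at no more than 0.5 of their wild-type level in both Cre models. They were taken from 41214 counted gene identifiers. A gene was a member if it was protein-coding, had at least 100 counts in each of the 2 wild-type libraries, and had a knockout over wild-type ratio of CPM (the count in each 1000000 gene counts of the library) of 0.5 or less in PF4-Cre and in ROSA-Cre. Genes whose symbol begins with Hist, Ig, Tub, Serpin, Col or Hsp, and a set of single genes such as Mpo, Elane and Klf1, were left out by symbol, which removed 18 of 67 genes that met the limits. The genes were chosen by these ratios, so the ratios are given below as a description without a test.

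The study compared megakaryocytes, the platelet-forming cells of bone marrow, with and without Gfi1b, a zinc finger repressor of megakaryocyte and red cell development. There were 4 groups of 1 library each: Gfi1b wild-type with PF4-Cre, Gfi1b knockout with PF4-Cre, Gfi1b wild-type with ROSA-Cre and Gfi1b knockout with ROSA-Cre. All mice were C57Bl/6 aged 8 weeks, and the cells of every group had been sorted from bone marrow as lineage-negative, cKit+, CD41+ and CD61+. The labels give the wild-type libraries the same Cre status as the knockouts of their model. PF4-Cre takes its name from the platelet factor 4 gene, which is active in the megakaryocyte lineage. The labels do not describe the ROSA-Cre allele, the floxed exons or how many mice went into a library. Gfi1b itself had more counts in the knockout libraries (10137 and 84744 in PF4-Cre wild-type and knockout, 5864 and 55122 in ROSA-Cre). A gene count sums all exons, so it cannot check the labels, and knockout below means the library labelled knockout. Gene counts ranged from 21835165 to 61652843 per library, and 3 counts, the upper limit that a count of 0 allows, equalled 0.0487 to 0.137 CPM. All 20 megakaryocyte and platelet markers were detected in every library, with summed levels of 7908 and 9157 CPM in PF4-Cre wild-type and knockout (ratio 1.16) and 10969 and 8252 CPM for ROSA-Cre (0.752).

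As background, GFI1B binds DNA through its zinc fingers and recruits the LSD1-CoREST corepressor, and it is known mainly as a repressor of transcription. Megakaryocytes arise next to red cell and granulocyte precursors, and the sort gate here rests on cKit and on the integrin chains CD41 and CD61. In such bulk samples fewer cells of a type and less RNA per cell cannot be told apart.

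Members were rare in both models. Of 10087 protein-coding genes with at least 100 counts in both wild-type libraries, 0.942% were at or under the limit in PF4-Cre, 4.49% in ROSA-Cre and 0.664% in both. Of the genes under it in PF4-Cre, 70.5% were also under it in ROSA-Cre, whereas 14.8% of those in ROSA-Cre were also so in PF4-Cre. Genes at 2 times or more in both models made up 3.33%. The median knockout over wild-type ratio of the 49 genes was 0.41 in PF4-Cre (range 0.253 to 0.4997) and 0.301 in ROSA-Cre (0.0451 to 0.472), beside 0.978 and 0.997 over all 10087 genes. In the plot of both ratios the members fill the lower left corner and reach further down than left.

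**Figure D1:**
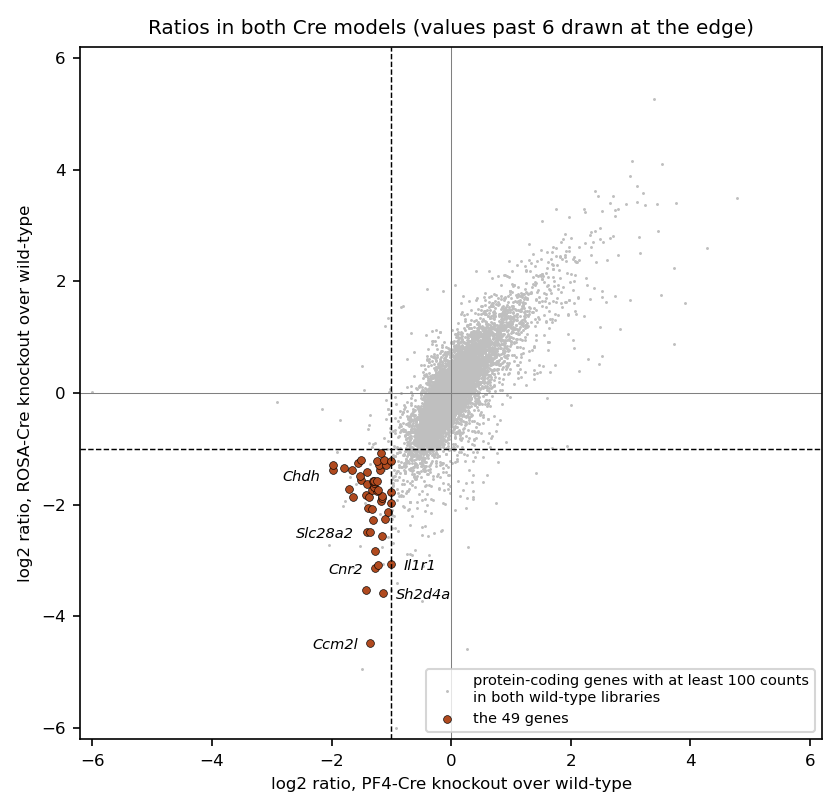
Log2 ratio of knockout over wild-type CPM in PF4-Cre (x axis) and ROSA-Cre (y axis), 1 point per gene with at least 100 counts in both wild-type libraries, with dashed lines at the limit of the rule. The 49 genes lie between ratios of 0.253 and 0.4997 on the x axis and between 0.0451 and 0.472 on the y axis, and grey points in that corner are the 18 genes left out by symbol.

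Sequence upstream of the start was looked at for 38 of the 49 genes, those with an entry in the RefSeq promoter table of GRCm38.p6 (51 starts). It is shown here for 4 genes, Cnr2 and Slc28a2 as markers of the group, and Dpp4 and Chdh because their upstream sequence holds AATCAC, the extended form of the AATC core that GFI1 proteins bind. The 250 bases before the start are printed 5′ to 3′ on the strand of the gene. Capitals mark AATC, its extended form AATCAC, the GATA-type motif AGATAA, the RUNX-type motif TGTGGT and the KLF-type motif CCACACCC, each on either strand, with AATC lying inside every AATCAC. The starts are at chr4:135894939-135895188 on the plus strand for Cnr2, chr2:122426185-122426434 on the plus strand for Slc28a2, chr2:62412232-62412481 on the minus strand for Dpp4 and chr14:30021053-30021302 on the plus strand for Chdh, and none of these windows overlaps an exon of the GENCODE release M21 annotation. RefSeq gives Cnr2 and Chdh more than 1 start, and the Chdh start shown lies inside the annotated gene.
Cnr2: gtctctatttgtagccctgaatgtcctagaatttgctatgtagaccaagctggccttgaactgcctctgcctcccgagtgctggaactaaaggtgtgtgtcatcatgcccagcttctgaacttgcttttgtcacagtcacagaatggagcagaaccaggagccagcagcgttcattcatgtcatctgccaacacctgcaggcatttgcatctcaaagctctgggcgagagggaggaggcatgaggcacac
Slc28a2: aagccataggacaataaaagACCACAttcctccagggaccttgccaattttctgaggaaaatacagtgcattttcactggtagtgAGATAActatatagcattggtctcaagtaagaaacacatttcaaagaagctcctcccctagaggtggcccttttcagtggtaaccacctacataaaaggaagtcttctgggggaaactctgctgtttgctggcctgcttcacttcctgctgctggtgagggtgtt
Dpp4: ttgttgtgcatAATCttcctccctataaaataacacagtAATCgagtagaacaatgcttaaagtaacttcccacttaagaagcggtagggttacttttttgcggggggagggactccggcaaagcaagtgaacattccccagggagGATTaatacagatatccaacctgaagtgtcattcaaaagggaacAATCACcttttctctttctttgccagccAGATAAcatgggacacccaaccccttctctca
Chdh: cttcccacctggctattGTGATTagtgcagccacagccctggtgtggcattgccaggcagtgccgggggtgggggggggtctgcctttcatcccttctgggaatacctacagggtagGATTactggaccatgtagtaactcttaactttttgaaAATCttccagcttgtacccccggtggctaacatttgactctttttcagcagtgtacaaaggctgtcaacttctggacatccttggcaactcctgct

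The Cnr2 window holds none of the 5 motifs, and the Slc28a2 window holds AGATAA and the reverse complement of TGTGGT. Over the 51 member starts, AATC stood in 60.8%, beside 61.9% of the 10310 starts of protein-coding genes with at least 100 counts in both wild-type libraries and 69.0% of all 32851 starts. AATCAC stood in 9.8% of member starts, beside 7.38% and 9.14%. These are 5 starts of 4 genes, Dpp4, Chdh, Clec12a and Ak4, the last counted more than once through overlapping windows. The shares were 9.8% beside 5.62% and 9.99% for AGATAA, 19.6% beside 10.5% and 14% for TGTGGT, and 7.84% beside 3.41% and 3.2% for CCACACCC. The last of these rests on 4 of 51 starts. A match is a run of letters in this window and was not tested as a binding site.

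Surface proteins and receptors of blood cells were 8 of the 49 genes, with PF4-Cre ratios of 0.254 to 0.4997 and ROSA-Cre ratios of 0.114 to 0.421. Cnr2, the cannabinoid receptor of immune cells (chromosome 4, 135895394 to 135920207, plus strand), had 93.3 CPM in wild-type and 38.7 in knockout with PF4-Cre, and 79.3 in wild-type and 9.02 in knockout with ROSA-Cre. Both wild-type libraries stood above both knockout libraries, with the ROSA-Cre knockout lowest. The level was 2.41-fold lower in PF4-Cre (95% Clopper-Pearson counting interval of the ratio 0.396 to 0.436) and 8.78-fold lower in ROSA-Cre (0.0978 to 0.132). Il1r1, the signalling receptor of interleukin 1, had 13.9 and 6.93 CPM in PF4-Cre and 16.8 and 2.02 in ROSA-Cre, and lay just inside the limit in the first model. Siglecf, a sialic acid binding lectin of mouse eosinophils, went the other way, with 5.09 and 1.29 CPM in PF4-Cre and 5.95 and 2.43 in ROSA-Cre. Dpp4, the CD26 protease that trims chemokines, had 22.6 and 7.65 CPM in PF4-Cre and 10.5 and 4.4 in ROSA-Cre. Its ROSA-Cre wild-type level was nearer to the PF4-Cre knockout level than to the PF4-Cre wild-type level. Cd24a, a small anchored glycoprotein, Clec12a, an inhibitory lectin of myeloid cells, the butyrophilin-like gene Btnl9 and the orphan receptor Gpr160 had ratios of 0.423, 0.422, 0.435 and 0.41 in PF4-Cre and 0.297, 0.335, 0.41 and 0.337 in ROSA-Cre.

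Proteins of the red cell lineage made up 5 members and had the lowest median ratio of the role groups in ROSA-Cre, 0.169, against 0.404 in PF4-Cre. Each of the 5 was lower in ROSA-Cre than in PF4-Cre. Hemgn, the nuclear protein hemogen of blood cell development, had 77.2 and 34.5 CPM in PF4-Cre and 69.2 and 11.7 in ROSA-Cre. Icam4, the Landsteiner-Wiener adhesion protein, had 18.7 and 7.55 CPM in PF4-Cre and 20.1 and 4.17 in ROSA-Cre. Add2, the beta chain of adducin in the membrane skeleton, was scarce, with 106 and 38 counts in PF4-Cre and 118 and 9 in ROSA-Cre, and Ermap, an erythroblast membrane protein, had 213 and 88 counts and 184 and 19. For Add2 and Ermap the wild-type CPM was 2.76-fold and 2.14-fold higher in ROSA-Cre than in PF4-Cre, while the knockout level was lower in ROSA-Cre. Hebp1, a heme binding protein, had a ratio of 0.372 with PF4-Cre and 0.283 with ROSA-Cre.

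Early granulocyte genes gave 3 members, with a median ratio of 0.305 for PF4-Cre and 0.396 for ROSA-Cre. Cebpe, the transcription factor of late granulocyte maturation, had 7.48 and 2.15 CPM in PF4-Cre and 10.3 and 4.08 in ROSA-Cre. Prss57, a neutrophil serine protease, had 13.3 and 4.04 CPM in PF4-Cre and 17.9 and 5.45 in ROSA-Cre, a ratio of 0.305 in both. For Cebpe the ratio was lower in PF4-Cre, while for Prss57 and Plac8 the models differed little. Plac8, a small cysteine-rich protein of myeloid progenitors, had the highest wild-type level of the 49 genes per transcript length, 365 TPM (counts per base of exon, scaled to sum to 1000000 in a library) in PF4-Cre and 234 in ROSA-Cre, with 173 and 101 TPM in the knockouts. All 3 belong to a list of 20 neutrophil precursor markers written with earlier results of these libraries known. The other 17 of that list summed to 1450 CPM and 594 CPM in the PF4-Cre wild-type and knockout libraries and 1723 and 692 CPM with ROSA-Cre, a ratio of 0.409 and 0.402. Of these 17, 5 (Ctsg, Elane, Mpo, Ms4a3 and Prtn3) met the limits too and were left out by symbol, so their ratios were fixed by the rule. The remaining 12 summed to 317.5 and 248.8 CPM with PF4-Cre and 419 and 350 with ROSA-Cre, ratios of 0.784 and 0.835. These ratios are raised by Gfi1, 1 of the 12, which had 7.64 and 40.5 CPM with PF4-Cre and 7.96 and 97.5 with ROSA-Cre. By the edgeR test given below, 6 of the 12 fell and 2 rose. Whether these cells' share had a part in the members' levels was not tested.

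Adhesion, matrix and secreted proteins were 9 members, with median ratios of 0.413 for PF4-Cre and 0.293 for ROSA-Cre. Mdga1, an anchored adhesion protein with a MAM domain that binds neuroligins (chromosome 17, 29827949 to 29970087, minus strand), had 42.4 and 16.5 CPM in PF4-Cre and 56.8 and 10.2 in ROSA-Cre. Both wild-type libraries stood above both knockout libraries. Emid1, a secreted protein with an EMI domain, had 18.2 and 7.53 CPM in PF4-Cre and 32.8 and 4.63 in ROSA-Cre. Ccl9, a chemokine of myeloid cells, had 30.8 and 13.2 CPM in PF4-Cre and 20.9 and 6.32 in ROSA-Cre. The secreted carboxypeptidase homologue Cpxm1 had ratios of 0.322 and 0.275, the claudin Cldn15 0.385 and 0.276, the neuregulin Nrg2 0.347 and 0.357, the metalloprotease inhibitor Timp2 0.439 and 0.387, and the membrane serine protease Tmprss3 0.498 and 0.293. Adam11, a disintegrin without protease activity, was the only member whose wild-type and knockout CPM overlapped when both models were set side by side, with 3.81 and 1.61 CPM in PF4-Cre and 9.45 and 4.08 in ROSA-Cre. In the other 48 genes both wild-type libraries lay above both knockout libraries in CPM, which the rule favours. TMM and DESeq2 scaling gave the same 48, whereas in TPM it was 47, with Dusp6 and Gatm overlapping and Adam11 not.

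**Figure D2:**
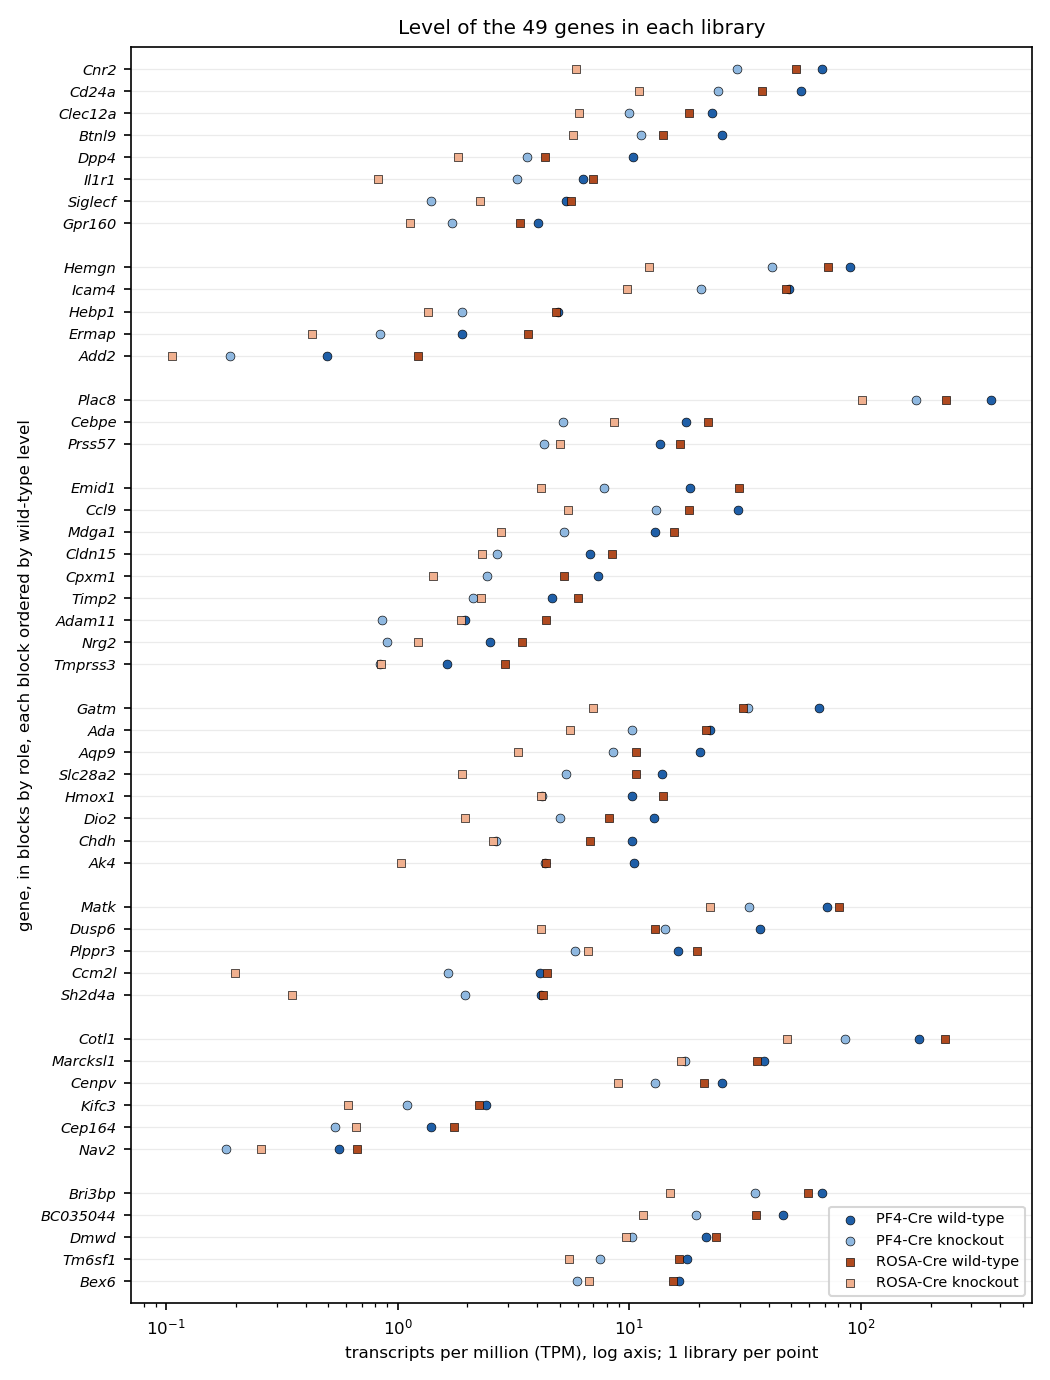
Level of each of the 49 genes in the 4 libraries, as TPM on a log axis, in blocks by role, with 1 point per library. In 47 genes both wild-type points (dark) lie to the right of both knockout points (light), the exceptions on this scale being Dusp6 and Gatm, and Plac8 reaches the highest level, 365 TPM in the PF4-Cre wild-type library.

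Transporters and enzymes of metabolism were 8 members, with a median ratio of 0.398 for PF4-Cre and 0.25 for ROSA-Cre. Slc28a2, a sodium-coupled transporter that concentrates purine nucleosides (chromosome 2, 122426477 to 122461137, plus strand), had 20 and 7.5 CPM in PF4-Cre and 17.2 and 3.07 in ROSA-Cre. Ada, the deaminase that turns adenosine into inosine, had 15.4 and 6.85 CPM in PF4-Cre and 16.4 and 4.26 in ROSA-Cre. Slc28a2 is uncertain because 39.6% of the 50-base windows of its longest transcript also occur in its neighbour Gm14085, which was counted at 193 and 41 in PF4-Cre and at 25 and 8 in ROSA-Cre. Gatm, the first enzyme of creatine synthesis, lies 133 kb from Slc28a2 and had 67.9 and 32.7 CPM in PF4-Cre and 35.3 and 8.06 in ROSA-Cre. Chdh, the mitochondrial choline dehydrogenase, had the lowest PF4-Cre ratio of the 49 genes, with 21.9 and 5.54 CPM in PF4-Cre and 16.0 and 6.14 in ROSA-Cre. Dio2, which activates thyroid hormone, had ratios of 0.383 and 0.24, the mitochondrial adenylate kinase Ak4 0.399 and 0.236, the glycerol and water channel Aqp9 0.41 and 0.313, and the heme oxygenase Hmox1 0.397 and 0.301.

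Signalling proteins were 5 members and each had a lower ratio in ROSA-Cre than in PF4-Cre, as did 39 of all 49 members. For Dusp6 and Plppr3 the counting intervals of both ratios overlapped. Ccm2l, a relative of the cerebral cavernous malformation protein CCM2, had 209 and 79 counts in PF4-Cre and 101 and 4 in ROSA-Cre, the lowest ROSA-Cre ratio of the 49 (0.0451, counting interval 0.0121 to 0.119). Sh2d4a, an SH2 domain adaptor, had 241 and 106 counts in PF4-Cre and 109 and 8 in ROSA-Cre. Both rest on fewer than 10 counts in the ROSA-Cre knockout, so their folds there are loosely set. Dusp6, the phosphatase that switches off the kinase ERK, had 39.6 and 14.9 CPM in PF4-Cre and 15.4 and 4.99 in ROSA-Cre. Matk, a kinase that restrains Src-family kinases, was abundant, with 112.6 and 50.6 CPM in PF4-Cre and 141.4 and 39.4 in ROSA-Cre. Plppr3, a phosphatase-related membrane protein, had ratios of 0.35 and 0.341. It lies 69.5 kb from Prss57, and its annotated span on chromosome 10 (79860475 to 79874634, minus strand) overlaps the start of Prtn3 (79874476 to 79883174, plus strand), a granule protease that had ratios of 0.37 and 0.254 and was left out by symbol.

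Cytoskeletal and centrosomal proteins were 6 members. Cotl1, a coactosin-like actin binding protein, had 97.8 and 45.5 CPM in PF4-Cre and 140 and 29.4 in ROSA-Cre, and was among the most abundant of the 49 genes per transcript length (178 and 230 TPM in the wild-type libraries). Marcksl1, a membrane-linked actin regulator, had 21 and 9.30 CPM in PF4-Cre and 21.7 and 10.3 in ROSA-Cre, nearly the same in both models. Nav2, a neuron navigator protein, had ratios of 0.316 and 0.385, the centriole protein Cep164 0.375 and 0.377, the kinesin Kifc3 0.446 and 0.272, and the centromere protein Cenpv 0.499 and 0.428. The last 5 members were Bri3bp, with 153.4 and 76.4 CPM in PF4-Cre and 147.6 and 37.7 in ROSA-Cre, and Bex6, BC035044, Tm6sf1 and Dmwd, with PF4-Cre ratios of 0.352 to 0.468 and ROSA-Cre ratios of 0.329 to 0.436.

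The members' ratios in the models are set side by side here as a description, since the rule used both. The ratio was lower in ROSA-Cre for 39 of the 49 genes and lower in PF4-Cre for 10. Over all 10087 genes 47.9% had a lower ratio in ROSA-Cre, but ratios under the limit were also more frequent there (4.49% against 0.942%), so genes chosen to lie under it in both models tend to be lower in ROSA-Cre, and nothing is read from the count. The counting intervals of both ratios did not overlap for 21 genes that were lower in ROSA-Cre and for 1, Chdh, that was lower in PF4-Cre. In the remaining 27 they overlapped. The gaps were widest for Ccm2l, Sh2d4a, Add2, Il1r1 and Cnr2, from -3.12 to -1.87 on the log2 scale (ROSA-Cre minus PF4-Cre), and on the other side for Siglecf, Chdh, Cebpe, Dpp4 and Bex6, from 0.69 to 0.31. In ROSA-Cre 15 members were at or under 0.25 and 3 at or under 0.1, whereas in PF4-Cre 0 were at or under 0.25. The choice of genes bears on these counts and on those of the intervals too. Their shares over all 10087 genes are not given, so nothing is read from them either. With 1 library per group these gaps have no replicate check, and the intervals cover counting error only.

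**Figure D3:**
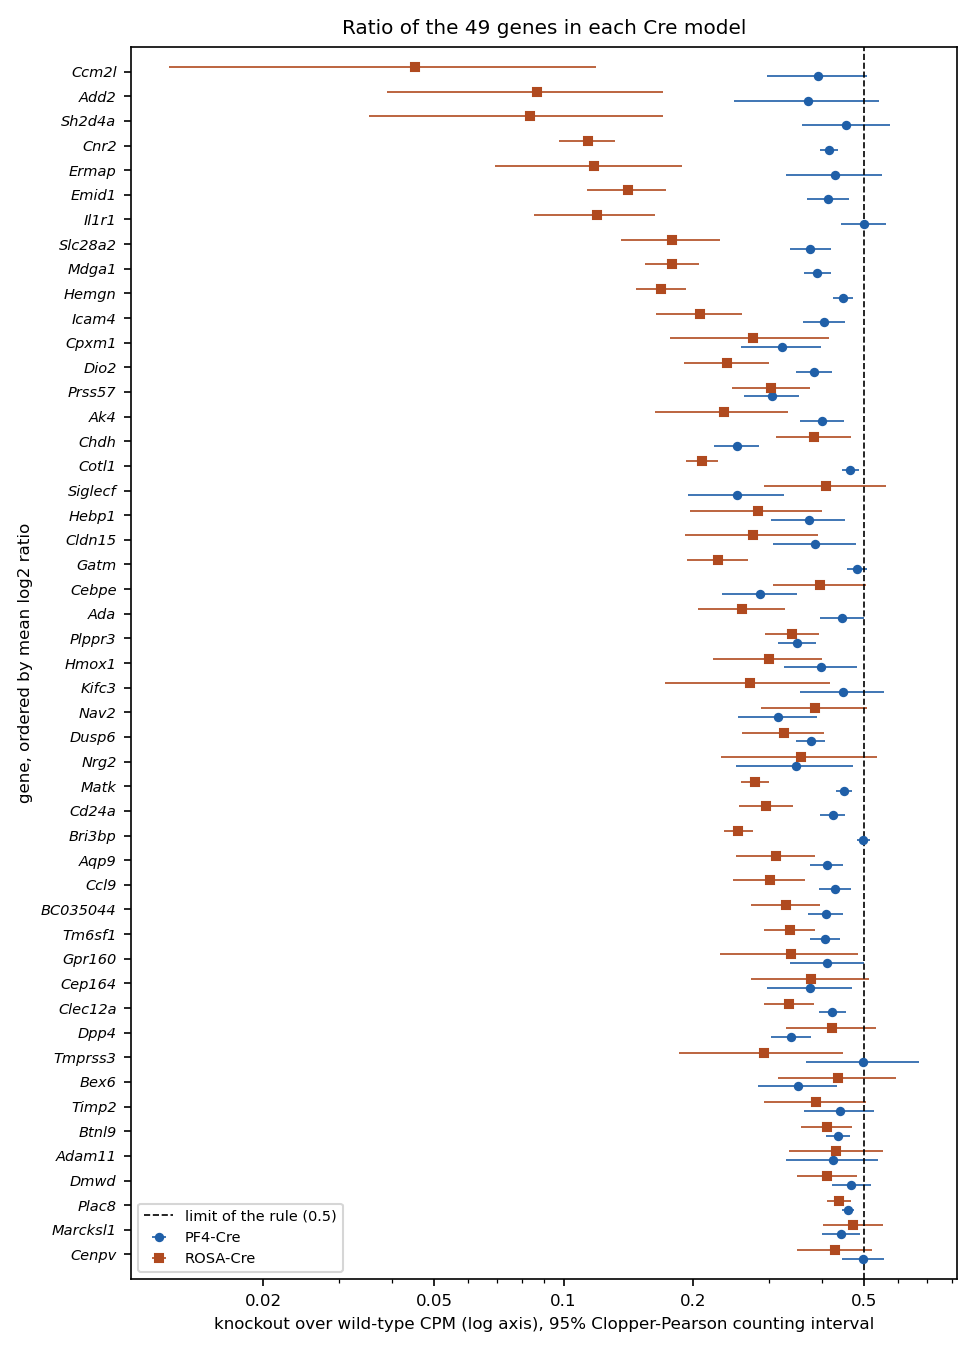
Knockout over wild-type CPM ratio of each of the 49 genes on a log axis, in PF4-Cre (circles) and ROSA-Cre (squares), with 95% Clopper-Pearson counting intervals and a dashed line at the limit of 0.5. The 10 genes at the top, Ccm2l to Hemgn, have ROSA-Cre ratios of 0.0451 to 0.179 and PF4-Cre ratios of 0.371 to 0.4997, with intervals that do not overlap, while at the bottom both ratios lie close together.

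The marker genes Cnr2, Slc28a2 and Mdga1 differed in which members they were most like, by the Euclidean distance between log2 CPM values (0.5 CPM added, each gene centred over the 4 libraries). Nearest to Cnr2 were Hemgn (0.496), Il1r1 (0.574), Ccm2l (0.603), Sh2d4a (0.689) and Slc28a2 (0.703). Nearest to Slc28a2 were Hemgn (0.257), Dio2 (0.274), Sh2d4a (0.322), Ccm2l (0.371) and Icam4 (0.373). Nearest to Mdga1 were Cotl1 (0.23), Icam4 (0.299), Emid1 (0.305), Ermap (0.44) and Matk (0.456). The ROSA-Cre knockout levels of Ccm2l and Sh2d4a (0.183 and 0.366 CPM) lie under the 0.5 CPM added, so their distances depend on that addition. Their ROSA-Cre log2 ratios without it were -4.47 and -3.58, beside -2.48 for Slc28a2 and -3.13 for Cnr2. The distances use the same 4 levels as the rule and are a description only.

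A comparison other than the one in the rule asks whether the members' levels differed between the Cre models, averaged over genotype. The rule used the counts of all 4 libraries, so the choice of genes bears on this comparison too. The members' median ROSA-Cre over PF4-Cre ratio was 1.06 in wild-type and 0.675 in knockout. In ROSA-Cre 9 of the 49 genes were lower and 1 was higher, and 39 did not pass (edgeR's quasi-likelihood test with genotype as a term, Benjamini-Hochberg adjustment over 15063 genes). Over all genes tested 10.4% were lower in ROSA-Cre and 8.33% higher, and among the 10087 protein-coding genes with at least 100 counts 12.9% and 9.34%. Dusp6 differed most (log2 fold change -1.48, SE 0.19, edgeR adjusted p = 0.00605), followed by Gatm (log2 fold change -1.45, SE 0.25) and Ak4 (-1.41, SE 0.28). Dpp4 (-1.0, SE 0.23), Aqp9 (-0.97, SE 0.21), Ccl9 (-0.80, SE 0.21), Btnl9 (-0.76, SE 0.16), Cd24a (-0.67, SE 0.18) and Plac8 (-0.55, SE 0.12) were lower too, with adjusted p values between 0.0115 and 0.0441 for these 6, Gatm and Ak4 in the same edgeR test. In each of the 9 the ROSA-Cre library was below the PF4-Cre library of the same genotype. Adam11 was higher in ROSA-Cre (1.30, SE 0.28, adjusted p = 0.0217 by edgeR), in both genotypes. Cnr2 (-1.10, SE 0.38, adjusted p = 0.0813) and Hemgn (-0.83, SE 0.30, adjusted p = 0.0902) did not pass the edgeR test. Without the genotype term, or without any 1 of the 4 libraries (a fit in which the genotype term had to be dropped), 0 members passed edgeR's test in either direction. At an unadjusted p under 0.05 these fits gave 0 to 2 higher and 0 to 15 lower, beside 1 and 13 with the genotype term and all libraries, and DESeq2 called 1 higher and 11 lower. The ROSA-Cre libraries were also the shallower ones, so Cre model and depth cannot be told apart.

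**Figure D4:**
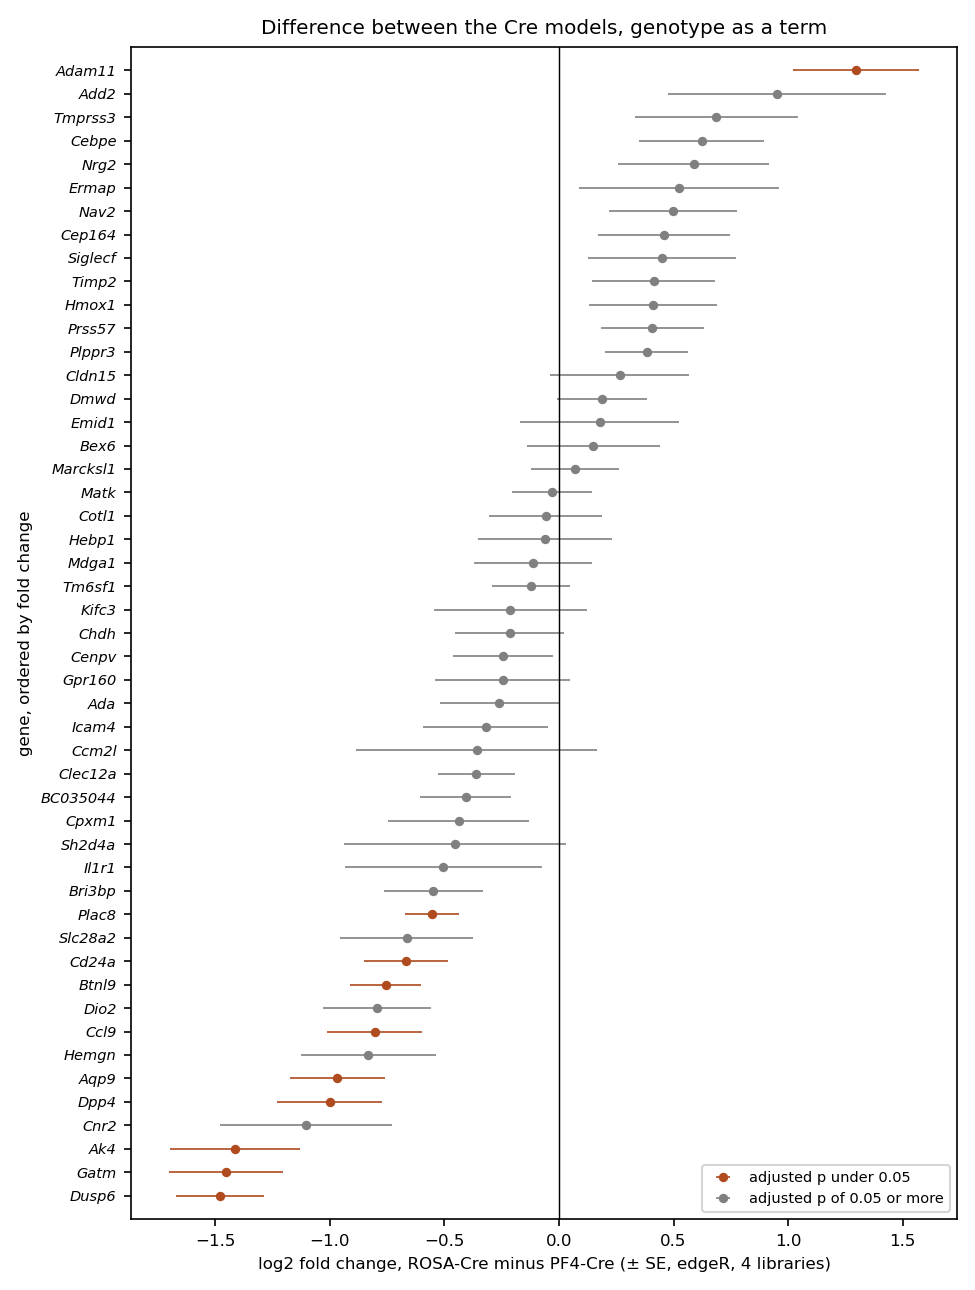
Log2 fold change between the Cre models (ROSA-Cre minus PF4-Cre) with its standard error for the 49 genes, from the edgeR fit over 4 libraries with genotype as a term. The 10 genes past the test are coloured, 9 below 0 from Dusp6 (-1.48) to Plac8 (-0.55) and Adam11 (1.30) above. The genes were chosen from the counts of the same 4 libraries, which bears on these values.

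The levels were also set side by side within each genotype, again as a description, because the rule used the counts of all 4 libraries. The ROSA-Cre over PF4-Cre ratio of the members had a median of 1.06 in wild-type (range 0.388 to 2.76) and 0.675 in knockout (0.138 to 2.53), beside 1.02 and 1.0 over all 10087 genes. In wild-type 29 of 49 members were higher in ROSA-Cre, beside 52.2% of all genes. In knockout 34 of 49 were lower in ROSA-Cre, beside 49.5%, a count that the choice of genes bears on as above. Add2, Adam11 and Ermap were the members furthest above in ROSA-Cre wild-type (2.76, 2.48 and 2.14), and Dusp6 was the furthest below (0.388).

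Pathway genes were read from 9 lists that hold 180 tested genes besides the members, of which 18 rose and 68 fell in the knockout libraries (edgeR, Cre model as a term, adjusted over 15063 genes). Over all genes 12.6% rose and 9.59% fell. Only the cannabinoid, nucleoside salvage, MDGA and EMI domain lists hold members. In these, 6, 4, 0 and 0 other genes rose and 1, 5, 1 and 0 fell. Most of the falls lie in the lists without a member, such as 22 of 32 secretory pathway genes. By the same fit all 49 members were lower, a count that the choice by this contrast fixes. Most called genes of the cannabinoid list differed in the direction opposite to Cnr2. Of its 14 tested genes other than Cnr2, 6 rose and 1 fell. Cnr1, the other cannabinoid receptor and best known from neurons, had 33 and 1060 counts in PF4-Cre and 7 and 294 in ROSA-Cre (log2 fold change 5.12, SE 0.34, edgeR adjusted p = 0.000264). Cnrip1, which encodes a protein that binds the CNR1 tail, had 59 and 1920 counts in PF4-Cre and 20 and 1333 in ROSA-Cre (5.46, SE 0.30, edgeR adjusted p = 0.000146). In CPM Cnr1 stood at 0.535 and 17.8 with PF4-Cre and 0.281 and 13.5 with ROSA-Cre, with both knockout libraries above both wild-type libraries, the opposite of Cnr2. The one that fell was Fabp5, a fatty acid binding protein that also carries endocannabinoids (-1.43, SE 0.33). The list's median log2 ratio without Cnr2 was 0.35 in PF4-Cre and 0.22 in ROSA-Cre, beside 0.02 and 0.05 over all genes tested.

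In nucleoside transport and salvage, the pathway of Slc28a2 and Ada, 4 of 28 other tested genes rose and 5 fell. Gda, the guanine deaminase, rose, with 5146 and 26757 counts in PF4-Cre wild-type and knockout and 1222 and 5437 with ROSA-Cre (2.33, SE 0.12, edgeR adjusted p = 0.000142), and the uridine phosphorylase Upp1 rose by 1.65 (SE 0.28). Adk, Tk1, Aprt, Uck2 and Dctd, which phosphorylate, salvage or deaminate nucleosides, bases and nucleotides, fell by 0.51 to 0.65. De novo nucleotide synthesis had no member, and 20 of 28 tested genes fell and 1 rose, led by Pfas (-0.92, SE 0.14) and Cad (-1.06, SE 0.17). The median log2 ratios were -0.08 and -0.11 for the salvage list and -0.41 and -0.61 for de novo synthesis in PF4-Cre and ROSA-Cre.

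Few relatives of Mdga1 and Emid1 passed the test. Of 3 tested partners and relatives of Mdga1, 1 fell, the neuroligin Nlgn2 (-0.56, SE 0.13), and Nrxn2 (1.09, SE 0.64) did not pass the edgeR test (adjusted p = 0.263). Mdga2, the paralogue, had 6 and 11 counts in PF4-Cre and 4 and 8 in ROSA-Cre and was not tested. Of 5 EMI domain genes besides Emid1, 0 passed the edgeR test in either direction, with Emilin2 (-1.47, SE 0.44, adjusted p = 0.0539) and the platelet receptor Pear1 (0.34, SE 0.12, adjusted p = 0.0741) nearest to it. Unadjusted, 1 was higher and 2 lower in edgeR at p under 0.05, and DESeq2 called 0. Among leukocyte chemoattractant and lipid receptors 4 of 26 rose and 4 fell, with Lpar6 (1.48, SE 0.15) and S1pr1 (1.90, SE 0.23) upward. Amino acid transporters had 8 of 26 lower and 2 higher, Slc43a3 (-0.87, SE 0.13) and Slc7a5 (-1.39, SE 0.21) among the former. Serine, one-carbon and amino acid synthesis had 11 of 22 lower, such as Mthfd1l (-0.87, SE 0.14), and 1 higher, the glutamine synthetase Glul (2.67, SE 0.24). Secretory pathway chaperones had 22 of 32 lower and 0 higher, Manf (-1.04, SE 0.20) and Spcs3 (-0.65, SE 0.13) among them.

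Without the Cre model term 3 genes of these lists rose and 0 fell. When a library was left out, a fit that also drops the Cre model term, 6 rose and 6 fell without PF4-Cre wild-type, 8 and 12 without PF4-Cre knockout, 6 and 1 without ROSA-Cre wild-type, and 6 and 0 without ROSA-Cre knockout.

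Markers of other cell types were compared across the libraries, since 11 of the 49 genes stand in a fixed list and 6 of these in lists of other cell types: Cebpe, Prss57 and Plac8 in the neutrophil precursor list, Add2 and Ermap in the erythroid list and Siglecf in the mast cell, basophil and eosinophil list. By the edgeR genotype test, 12.6% of all 15063 genes tested were higher and 9.59% lower in the knockout libraries. Of 17 neutrophil precursor genes besides the members 11 were lower and 2 higher, with the smallest p for Ctsg (-1.98, SE 0.13) and Mpo (-1.91, SE 0.13). Both are among the 5 that met the limits and were left out by symbol, for which the test adds nothing. Of the other 12, 6 fell, such as Alas1 (-0.92, SE 0.15) and Cd63 (-1.02, SE 0.18), and 2 rose, Gfi1 (2.92, SE 0.28) and Gstm1 (1.12, SE 0.18). Late neutrophil markers summed to 734 and 912 CPM with PF4-Cre and 750 and 238 with ROSA-Cre, and 0 of 16 passed the edgeR test, with Ltf (-1.04, SE 0.44, adjusted p = 0.132) and Il1r2 (0.95, SE 0.42, adjusted p = 0.148) nearest. Unadjusted, 0 were higher and 1 lower at p under 0.05, and DESeq2 called 0. Monocyte and macrophage markers summed to 610.9 and 608.7 CPM with PF4-Cre and 604 and 373 with ROSA-Cre, with 6 of 18 lower and 0 higher, F13a1 (-0.88, SE 0.17) and Irf8 (-1.05, SE 0.26) among them. Erythroid markers without members and without globins summed to 958 and 824 CPM with PF4-Cre and 769 and 553 with ROSA-Cre, while the globins rose, Hbb-bs by 3.36 (SE 0.36) and Hba-a1 by 2.82 (SE 0.33). In that list 4 of 18 genes rose, all globins, and 6 were lower, of which Car1, Klf1, Rhd and Tspan33 also met the limits and were left out by symbol. Of the other 14, 4 rose and 2 fell, Rhag (-1.65, SE 0.43) among them. Per gene, the median log2 ratio of the 18 was -0.23 in PF4-Cre and -1.60 in ROSA-Cre, with globins and left-out genes included. In PF4-Cre the late neutrophil sum was higher in the knockout (ratio 1.24) and the monocyte sum nearly equal (0.996), while in ROSA-Cre both were lower in the knockout, as the members were (0.318 and 0.617). Their part in the members' ratios there was not tested.

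**Figure D5:**
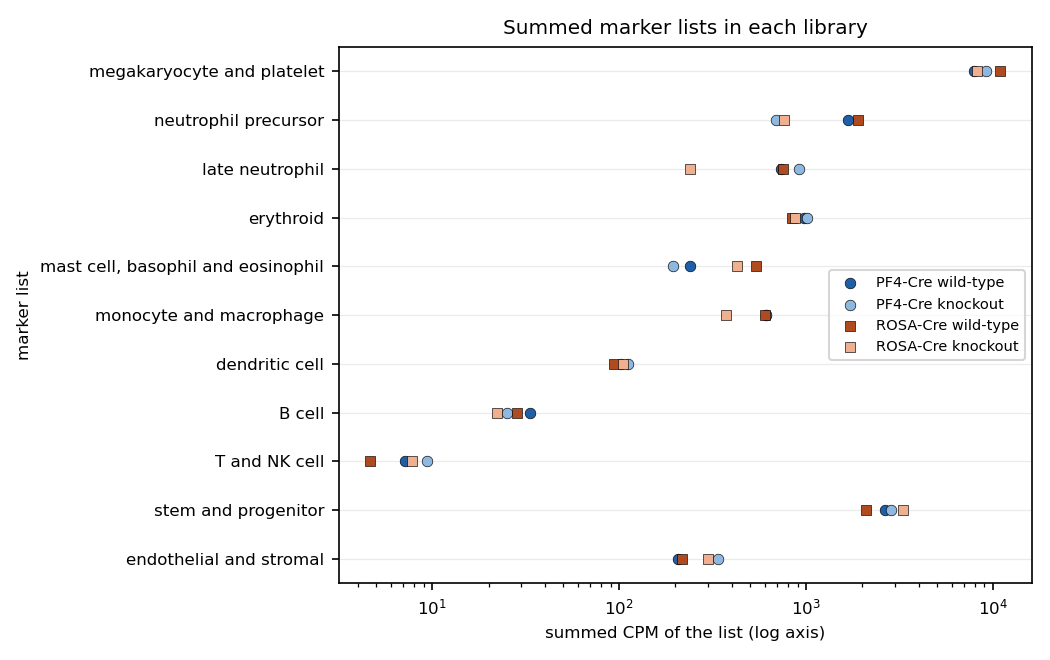
Summed CPM of 11 marker lists on a log axis, 1 point per library, with members of the 49 included where a list holds them. The neutrophil precursor list, whose sum includes members and left-out genes, is lower in both knockout libraries, the late neutrophil list is lower in the ROSA-Cre knockout and higher in the PF4-Cre knockout, and the megakaryocyte list is lower in the ROSA-Cre knockout (10969 and 8252 CPM) and higher in the PF4-Cre knockout (7908 and 9157 CPM).

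Mast cell, basophil and eosinophil markers summed to 238 and 194 CPM in PF4-Cre and 542 and 428 in ROSA-Cre, and of the 14 tested besides Siglecf 3 were lower and 1 was higher, Fcer1a (1.33, SE 0.34). The 3 were Hdc (-1.38, SE 0.19), which met the limits and was left out by symbol, Gata1 (-0.65, SE 0.13), which megakaryocytes also express, and Prg2 (-1.18, SE 0.29), an eosinophil granule protein. The eosinophil granule genes Epx, Prg2, Prg3 and Ear1 had PF4-Cre ratios of 0.224, 0.274, 0.132 and 0.0713 and ROSA-Cre ratios of 0.817, 0.712, 0.897 and 0.734, beside 0.254 and 0.408 for Siglecf. Ear1 rests on 29 and 2 counts in PF4-Cre, and the part of these cells in the Siglecf ratio was not tested. Stem and progenitor markers had 7 of 18 higher and 0 lower, beside 12.6% and 9.59% of all genes tested. They were led by Procr (6.15, SE 0.37) and Fgd5 (3.73, SE 0.25). Endothelial and stromal markers had 4 of 11 higher and 3 lower, with Plvap (4.74, SE 0.33) and Egfl7 (1.37, SE 0.15) upward. The 3 lower were Cxcl12 (-2.01, SE 0.57), Col1a2 (-1.63, SE 0.33) and Lepr (-2.56, SE 0.59), the last with 8 and 4 counts in ROSA-Cre. Megakaryocyte markers had 6 of 20 higher and 4 lower, with Clec1b (2.65, SE 0.13) and Nbeal2 (0.76, SE 0.12) upward. The 4 lower were Gp5 (-1.36, SE 0.31), F2rl3 (-1.32, SE 0.23), Pf4 (-0.99, SE 0.26) and Gp9 (-0.60, SE 0.16). Dendritic cell markers summed to at most 112 CPM and B cell markers to at most 33.2 CPM per library, with 0 of 10 called by edgeR in each. Cd74 (-0.60, SE 0.27, adjusted p = 0.156) and Zbtb46 (0.76, SE 0.40, adjusted p = 0.214) were nearest in the former, and Cd79a (-2.11, SE 0.68, adjusted p = 0.0596) and Rag1 (-1.23, SE 0.45, adjusted p = 0.0924) in the latter. At an unadjusted p under 0.05, 0 dendritic cell markers and 3 B cell markers differed, the 3 being lower, and DESeq2 called 0 in each. T and NK cell markers summed to at most 9.36 CPM, with 8 of 16 at a count of 0 in each ROSA-Cre library, and 1 of 4 tested, Gzmb, rose (2.76, SE 0.54), whereas Klrb1c (1.15, SE 0.37, edgeR adjusted p = 0.0638) did not pass.

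The members did not come from 1 place in the genome. They lay on 16 chromosomes, with at most 6 on any 1 (chromosomes 2 and 11). Within 1 Mb of each other were 3 pairs: Prss57 and Plppr3 on chromosome 10, Slc28a2 and Gatm on chromosome 2, and BC035044 and Clec12a on chromosome 6, 452 kb apart. Between Prss57 and Elane (79781474 to 79888215 on chromosome 10) lie Plppr3 and Prtn3, and Elane and Prtn3 also met both limits but were left out by symbol. The median exonic length of the members was 3711 bases, beside 4653 over the 10087 genes, and the median GC content of the longest transcript 52.0% beside 49.5%. Per transcript length they were of lower abundance than most, with a median wild-type level of 15.1 TPM beside 28.1, and 11 of 49 lay above that general median.

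Some members share a stretch of chromosome with another gene, and the strand setting of the counting is not given in the sources used here. Tm6sf1 overlaps Hdgfl3 on the opposite strand, which went the other way, with 1408 and 2698 counts in PF4-Cre and 311 and 968 in ROSA-Cre. Hebp1 overlaps Fam234b and Plppr3 overlaps Ptbp1, both on the opposite strand, and those 2 partners had ratios of 0.707 to 0.793. Plppr3 also overlaps Prtn3 on the opposite strand, which had 7156 and 2558 counts in PF4-Cre and 4444 and 991 in ROSA-Cre. The Prtn3 ratios were 0.37 and 0.254, beside 0.35 and 0.341 for Plppr3, and the part of this overlap in the Plppr3 counts was not tested. The antisense gene Gm16758 in Mdga1 had 103 and 34 counts in PF4-Cre and 48 and 8 in ROSA-Cre, few beside the 2617 and 986 counts and the 1412 and 222 counts of Mdga1. Gm26512, opposite Dio2, had 135 and 42 counts and 42 and 19. Ak4 shares 11.3% of its 50-base windows with the pseudogene Ak3l2-ps, which had at most 17 counts.

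Where the limit fell decided some names. Just inside it, by the larger of the ratios, were Il1r1 (0.4997), Cenpv (0.499), Tmprss3 (0.498), Bri3bp (0.498) and Gatm (0.481). Just outside were Palm (0.501), Gpr161 (0.502), Adgrl1 (0.502), Fgf3 (0.503) and Lmna (0.503), with PF4-Cre ratios of 0.476 to 0.503 and ROSA-Cre ratios of 0.21 to 0.502. In 28 of the 49 genes the upper counting bound was at or under 0.5 in both models. The PF4-Cre bound passed the limit in 13 genes and the ROSA-Cre bound in 11.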

How the data were processed

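The authors deposited raw HTSeq read counts per Ensembl gene, 1 table for each of 4 libraries, unit counts, not normalised. Per the submitters' processing notes, the builds were mm10 and GRCm38, and DESeq, HTSeq, SAMtools and TopHat2 2.0.10 were used. Per the labels' protocols, libraries were made with a stranded mRNA kit and sequenced paired-end. Strand setting, annotation release and any pooling were not given in the sources used here. The 5 HTSeq category lines were dropped from all totals. Reads with no gene made up 32.1% to 36.2% of uniquely aligned reads. Of 41214 identifiers 40254 had a symbol, gene type and coordinates in GENCODE release M21 (GRCm38).

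CPM and ratios were computed from these counts with Python 3.11.15, and TPM with the merged exon length. Ratios have 95% Clopper-Pearson intervals. These and the floor of 3 counts cover counting error only, as PCR reads lacking molecular identifiers are not separate molecules. Across genes, edgeR 4.0.16 in R 4.3.3 was used (TMM, filterByExpr by genotype with minimum count 10, Cre model and genotype as terms, legacy set to false, Benjamini-Hochberg, threshold 0.05). This left 15063 genes and 1 residual degree of freedom, with n = 2 libraries per genotype and per model, so p-values measure only the spread between these libraries. Adjusted p-values are from that test, and SE was the log2 fold change divided by the root of the F statistic. On simulated counts for the Cre model effect over 15063 genes, 55% of 2-fold and 100% of 4-fold changes were recovered, with 3 false calls. The simulation gave all genes the same spread, changed genes upward only and held no genotype difference. The members do differ by genotype, so these rates may not hold for them.

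The members and 20 lists (11 of cell type markers, 9 of pathways) were chosen with earlier results of these data known, and roles were assigned by hand. Named were Cnr2, Slc28a2, Mdga1 and Gfi1b, and among members the 15 lowest by mean log2 ratio, the 6 most abundant, the 5 widest gaps between models each way, up to 5 past the Cre model test each way (the other 4 of the 9 lower were named after their values were seen), members in a list and the 5 on either side of the limit. The 2 genes with the smallest p of each list were named, and other list genes were named after their values were seen. All other members are named to account for each. Alternatives were other count minimums, ratio limits, scalings, a correction for GC content and length (splines, 4 degrees of freedom each), DESeq2 1.42.0, other filters and priors, and leaving out each library.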

Additional observations from a re-analysis of the deposited data

How the results depend on the processing

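The number of members depended most on the limits. It was 77 with at least 50 counts, 34 with 200, 18 at a ratio limit of 0.4, 142 at 0.6, and 28 where both upper counting bounds had to meet the limit. PF4-Cre alone gave 75 and ROSA-Cre alone 420. TMM-normalised library sizes gave 71 and DESeq2 size factors 70, each including all 49 genes, and the GC and length correction gave 54, of which 45 were among the 49. With all gene types it was 51, and with no symbols left out 67. The members' median ratio moved to 0.392 and 0.29 with TMM and to 0.412 and 0.314 with 5 counts added (PF4-Cre and ROSA-Cre). Genes higher in ROSA-Cre numbered 0 rather than 1 at a mean of at least 5 CPM, a filter that Adam11 does not meet, so it was not tested there. Without the genotype term 0 members were higher and 0 lower in ROSA-Cre, and leaving out each library (0 to 0 in either direction) gave the same. These fits left the members' genotype difference in the residual spread by construction. The 9 lower in ROSA-Cre were 7 to 11 under the other alternatives. In the pathway lists the genes that fell numbered 25 with no filter on low counts, rather than 68, and the cause was not tested. No replicate numbers pair the libraries beyond the Cre model, which was the block. Without that block 3 genes rose and 0 fell, and without each library in turn 6 to 8 rose and 0 to 12 fell. Of single genes, Plac8 moved to 0.16 in the Cre model effect without the PF4-Cre wild-type library, and Nbeal2 to -0.088 in the genotype effect without the ROSA-Cre knockout, where the other term was dropped. For ROSA-Cre knockout counts under 10 (Ccm2l, Sh2d4a and Add2), depth limits the ratio.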
